A study of Mus musculus with 2 samples.

Results

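The 9 genes described here make, carry, bind or answer to retinoic acid, and they were taken by symbol from 27998 genes measured in single cells of the mouse cochlea, the coiled organ of hearing. Rdh10, Aldh1a1 and Aldh1a2 are enzymes of synthesis, Rbp4, Stra6, Crabp1 and Crabp2 carry, import or bind retinoids, and Rarres1 and Rarres2 are named as retinoic acid receptor responders. Each symbol stood on 1 gene identifier. Wild-type C57BL/6 mice at postnatal day 20 gave 1 group of 2 droplet libraries from trypsin-dissociated cochleae, with no treatment and no comparison group. The labels give 5 to 8 mice and do not say whether each library had mice of its own. The p-values below measure how far class differences varied between the 2 libraries, a spread that may be technical. The design text names the purpose as a survey of which genes the cochlea expresses at this age.

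Retinoic acid is made from vitamin A in sequence. Retinol reaches tissues bound to RBP4 and enters some cells through STRA6, retinol dehydrogenases such as RDH10 turn it into retinal, and retinaldehyde dehydrogenases (ALDH1A1, ALDH1A2 and ALDH1A3) turn retinal into retinoic acid. The acid can act in the cell that made it or in neighbours, where CRABP2 is known to pass it to nuclear receptors (RAR with RXR partners), and CYP26 enzymes break it down. In the developing inner ear retinoic acid is known for roles in axial patterning and in the differentiation of the sensory epithelium.

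The libraries held 1610 and 720 barcodes with 20212520 and 7094752 UMIs (unique molecular identifiers, counted transcripts). Barcodes needed 300 or more detected genes and no more than 20% of UMIs from mitochondrial genes, and after removal of 2 and 4 called doublets 1329 and 640 cells stayed, with median depths of 10601 and 6115.5 UMIs. The libraries shared 2 cell barcodes. Haemoglobin genes took 25.4% and 12.6% of the UMIs of all barcodes before filtering. Cells were clustered without the 9 genes or the other retinoid genes tested here, so none of these defined a class. The 22 clusters gave 19 classes, of which 13 had 4 or more cells per library. Most mesenchymal and epithelial clusters did not meet the rule for a cell type name, so they keep numbers and are described by the genes that lead them.

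Cluster 0 (Dcn, Ccl11 and Pcolce, 149 and 166 cells in library 1 and library 2) had 4 of 9 fibroblast and 2 of 7 leptomeningeal markers raised. Cluster 2 (Lox, Apold1 and Adrb1, 68 and 141 cells), cluster 3 (Hal, Notum and Fn1, 159 and 25 cells) and cluster 4 (Tnfaip6, Sptssb and Gadd45g, 40 and 112 cells) held much of the Coch mRNA, which encodes cochlin, an abundant protein of inner ear fibrocytes. Clusters 2, 3 and 4 had 3, 3 and 2 of 7 fibrocyte markers raised, with Coch among them in cluster 2 only. Cluster 3 also had 3 of 5 stria basal cell markers raised. Cluster 6 (Hhatl and Ptgds, 52 and 34 cells) had 3 of 7 fibrocyte and 3 of 7 leptomeningeal markers, and cluster 7 (Col2a1, Bgn and Dmp1, 69 and 16 cells) had 5 of 9 osteoblast markers. Epithelial markers marked cluster 12 (Ucma, Frzb and Epyc, 34 and 22 cells), cluster 15 (Rnase1, Cndp2 and Dkk2, 17 and 28 cells), cluster 11 (Otol1, Lfng and Epcam, 54 and 7 cells) and the non-sensory cochlear epithelium-like cells (Fabp7, Fzd9 and Hey1, 43 and 6 cells). Of 12 non-sensory epithelium markers, clusters 12, 15 and 11 had 5, 7 and 8 raised. Clusters 12 and 11 also had 2 and 5 of 8 organ of Corti supporting cell markers raised, and cluster 15 had 3 of 6 stria marginal cell markers. Erythroid cell-like (410 and 39), macrophage-like (19 and 16) and hair cell-like cells (48 and 4) met the naming rule. All levels are CPM, the UMIs of a gene in a class and library scaled to a total of 1000000 UMIs, so they compare a gene between classes and not transcripts of different length.

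RefSeq promoters (GRCm38.p6) were matched for 6 of the 9 genes, in 11 entries. The 250 bases before the start are shown for 3 genes with different levels over the classes below: Aldh1a2, called higher in clusters 0, 3 and 4, Aldh1a1, called higher in cluster 12 and erythroid cell-like cells, and Rarres1, called higher in clusters 2, 3 and 4. They lie at chr9:71215539-71215788 (plus strand), chr19:20601718-20601967 (plus strand, the downstream of 2 entries) and chr3:67515524-67515773 (minus strand), each ending at the base before the start, and capitals mark matches to the nuclear receptor hexamers AGGTCA or AGTTCA and GGGTCA or GGTTCA on either strand.
Aldh1a2: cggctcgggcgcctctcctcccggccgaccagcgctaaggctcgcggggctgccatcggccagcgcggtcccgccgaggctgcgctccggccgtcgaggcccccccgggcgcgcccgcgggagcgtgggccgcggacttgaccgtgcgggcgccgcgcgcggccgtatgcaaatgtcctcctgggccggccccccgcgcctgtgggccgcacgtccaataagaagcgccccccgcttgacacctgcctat
Aldh1a1: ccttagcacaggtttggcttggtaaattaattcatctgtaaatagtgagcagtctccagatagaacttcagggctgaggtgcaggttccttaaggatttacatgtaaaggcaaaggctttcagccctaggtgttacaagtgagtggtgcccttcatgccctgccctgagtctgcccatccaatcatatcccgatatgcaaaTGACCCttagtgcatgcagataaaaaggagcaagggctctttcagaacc
Rarres1: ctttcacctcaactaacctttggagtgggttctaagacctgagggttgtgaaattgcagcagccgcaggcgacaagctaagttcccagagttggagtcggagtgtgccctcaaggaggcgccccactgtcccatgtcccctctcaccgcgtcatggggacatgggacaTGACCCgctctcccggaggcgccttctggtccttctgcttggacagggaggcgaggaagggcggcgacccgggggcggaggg
The Aldh1a2 window had no such hexamer and a GC content of 77.6%. The Aldh1a1 window (GC 46.4%) held 1, TGACCC on the sense strand, beginning 49 bases before the start, and the Rarres1 window (GC 62.4%) held the same letters 82 bases before it. The upstream Aldh1a1 entry, not shown, held 0, and of the other entries among the 11 only 1 of Rbp4 held a hexamer. A hexamer stood in 38.6% of all 32851 RefSeq promoter windows of this length. Direct repeats of these hexamers with a spacer of 1, 2 or 5 bases, the arrangements on which RAR and RXR are known to bind, stood in 0.164%, 0.174% and 0.0883% of all windows and in none of the 11 entries of these genes. These matches describe letters in a window and are not binding sites.

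The genes differed widely in abundance. Over the kept cells of both libraries, Rarres1 had 11589 UMIs, Rarres2 3682, Aldh1a1 1524, Crabp2 1032, Aldh1a2 939, Stra6 416, Rdh10 398, Rbp4 60 and Crabp1 2. Counts were summed per library and class, and the 10 classes with 10 or more cells per library were each compared with the mean of the other 9 (edgeR quasi-likelihood test with the library as a block, Benjamini-Hochberg adjustment over 4575 genes kept out of the clustering, threshold 0.05). A log2 fold change is thus a mean of log differences after TMM scaling. Of the 9 genes 7 passed the filter on low counts, and Rbp4 and Crabp1 did not. The 70 comparisons of these 7 genes gave 18 higher and 12 lower calls, where 14.9% and 6.23% of all comparisons of tested genes were called higher and lower. A gene that passes a filter through the class where it is high has to differ, so these totals are a description.

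In cluster 0 the genes called higher were 3 of 7 (Aldh1a2, Crabp2 and Rarres2) and 1 was lower (Rarres1), where 14.2% and 2.64% of all tested genes were called in these directions. In cluster 2 they were 3 higher (Rarres1, Rarres2 and Stra6) and 1 lower (Crabp2), against 18.7% and 5.14% of all genes. Cluster 3 had 4 higher (Aldh1a2, Rarres1, Rarres2 and Stra6) and 1 lower (Crabp2), against 17.5% and 4.83%, and cluster 4 had the same 4 higher and 0 lower, against 8.61% and 1.27%.

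Cluster 12 had 2 genes higher (Aldh1a1 and Crabp2) and 3 lower (Aldh1a2, Rarres1 and Rarres2), where 13.9% and 7.91% of all genes were called. Cluster 15 had 0 higher and 2 lower (13.5% and 6.84% of all genes), and cluster 6 had 0 higher and 2 lower (17.2% and 7.39%). Near the background were cluster 7 (1 higher and 0 lower, against 9.05% and 0.896%), erythroid cell-like cells (1 higher and 1 lower, against 24.9% and 17.9%) and macrophage-like cells (0 higher and 1 lower, against 11.7% and 7.45%), and nothing is read from these counts. The median log2 fold change of the 7 genes ran from -3.56 in macrophage-like cells to 1.89 in cluster 3, with 1.74 in cluster 0, 0.55 in cluster 2, 0.10 in cluster 12 and -1.58 in cluster 15, where the medians of all tested genes lay between -0.27 and 0.10. With every sum under 3 UMIs raised to 3 the medians ran from -1.31 in cluster 6 to 0.99 in cluster 3 (all tested genes from -0.19 to 0.41). They then changed sign in cluster 2 (-0.44), cluster 12 (-0.72) and erythroid cell-like cells (-0.37 to 0.11). To include hair cell-like cells, cluster 11 and non-sensory epithelium-like cells, a second fit took all 13 classes, an addition made after the data were seen. It gave 27 higher and 15 lower calls in 91 comparisons of these genes, against 15.7% and 5.66% of all comparisons. Non-sensory epithelium-like cells had 3 higher (Aldh1a1, Crabp2 and Rdh10) and 2 lower (Rarres1 and Rarres2), against 14.5% and 5.25% of all genes, hair cell-like cells 1 higher (Rdh10) and 2 lower (Aldh1a2 and Rarres2), against 20.2% and 13.5%, and cluster 11 had 1 higher (Crabp2) and 2 lower (Rarres1 and Rarres2), against 12.6% and 4.64%.

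**Figure D1:**
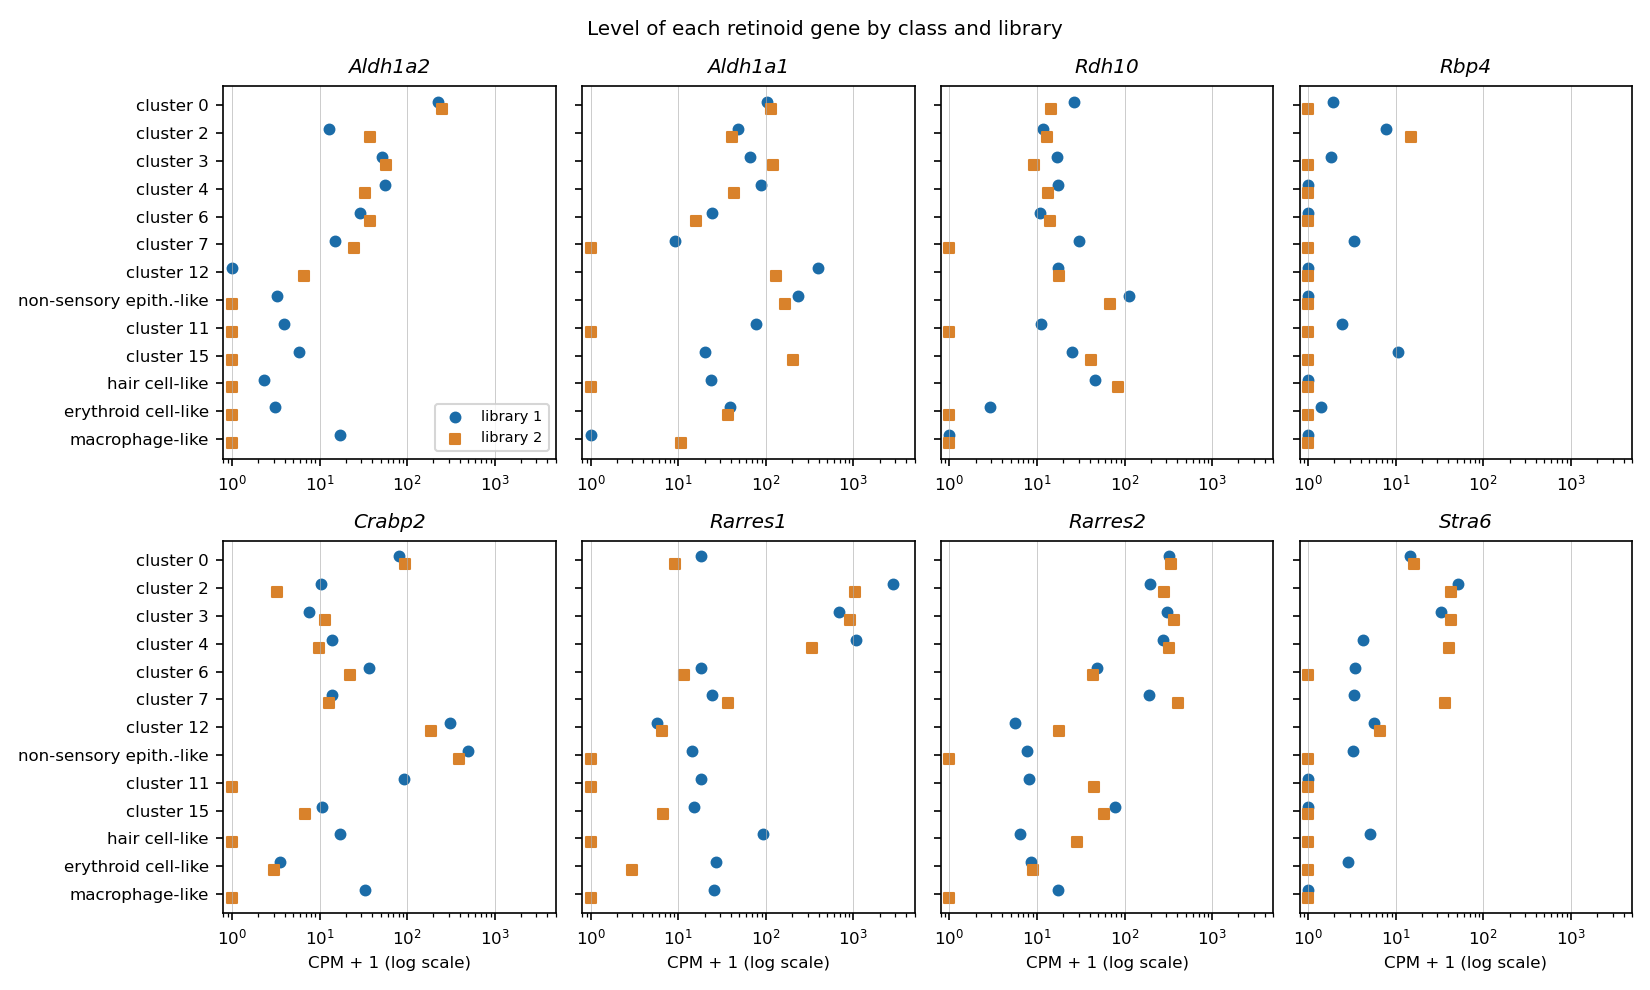
Level of 8 retinoid genes (CPM + 1, log axis) in 13 classes, with 1 point for each library (circles library 1, squares library 2). Aldh1a2 was highest in cluster 0 at 227 and 249 CPM, Crabp2 in non-sensory epithelium-like cells at 491 and 389 CPM, and Rarres1 in cluster 2 at 2815 and 1053 CPM. Crabp1, with 2 UMIs, is not drawn.

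Rdh10, the retinol dehydrogenase that catalyses the first oxidation, lies at chr1:16105774-16133734 (GRCm38, plus strand). Its level was 110.2 and 66.7 CPM in non-sensory epithelium-like cells (98 and 6 UMIs) and 45.6 and 83.3 CPM in hair cell-like cells (34 and 3 UMIs). In the 10 classes of the main comparison it lay between 0 CPM and 40.5 CPM, with cluster 15 at 23.9 and 40.5 CPM and cluster 0 at 25.3 and 13.3 CPM, and neighbouring classes overlapped from cluster 15 down to cluster 2. It was called in 0 of the 10 classes by edgeR, with an unadjusted p under 0.05 in 4 of them. Cluster 15 missed the threshold (adjusted p = 0.0773) and passed it in DESeq2 (adjusted p = 0.0438), which called 1 class. Under a filter of 500 genes and 10% mitochondrial UMIs edgeR called cluster 15 higher (adjusted p = 0.0288). At Leiden resolution 0.5 edgeR called the class matched to cluster 12 higher (adjusted p = 1.35e-11). Without scaling factors edgeR called clusters 0, 7 and 15 higher (adjusted p = 0.0425, 0.0427 and 0.0135).

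In the fit of 13 classes, Rdh10 was higher in non-sensory epithelium-like cells (adjusted p = 1.99e-17) and in hair cell-like cells (adjusted p = 6.95e-04). No fold is given, because macrophage-like cells had 0 UMIs of Rdh10 in both libraries, which sets the mean of the other classes. The share of non-sensory epithelium-like cells with an Rdh10 UMI was 72.1% and 66.7%, and 20.9% and 33.3% after thinning every cell to 2000 UMIs. In erythroid cell-like cells (median depths 10689 and 12729 UMIs), given here and below for comparison, the share was 2.20% and 0%, and 0% after thinning in both libraries. How much of their UMIs was free RNA was not tested. Thinning also counts their haemoglobin UMIs, so the thinned shares do not set a floor for other classes. Library 2 contributed 6 non-sensory epithelium-like and 4 hair cell-like cells, so its values rest on few counts.

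Aldh1a2, the retinaldehyde dehydrogenase of many embryonic mesenchymes, lies at chr9:71215789-71296243 (plus strand). It stood at 227 CPM in library 1 and 249 CPM in library 2 of cluster 0, from 252 and 244 UMIs. Cluster 3 followed at 51.1 and 56.2 CPM, cluster 4 at 55.1 and 32.2 CPM, cluster 6 at 28.4 and 36.7 CPM, and cluster 2 at 11.7 and 36.5 CPM. Cluster 0 lay above every other fitted class in both libraries, by 4.44 times the mean of cluster 3, while clusters 3, 4, 6, 2 and 7 overlapped their neighbours in the order. Cluster 6 was not called (adjusted p = 0.141) but was higher in the fit of 13 classes (adjusted p = 5.87e-04, where 17.8% of all genes were called higher), as was cluster 2 (adjusted p = 4.90e-04, 22.2%).

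Cluster 0 was higher than the mean of the other classes by a log2 fold change of 4.17 ± 0.24 (SE, adjusted p = 4.52e-18). Cluster 3 was higher by 1.89 ± 0.32 (adjusted p = 8.73e-06). Cluster 4 was higher by 1.45 ± 0.44 (adjusted p = 0.0248), a call lost when erythroid cell-like sums were left out (adjusted p = 0.0681). Cluster 0 held 47.3% and 60.1% of the Aldh1a2 UMIs of the libraries, and the 6 mesenchymal clusters (0, 2, 3, 4, 6 and 7) together held 96.1% and 99.5%.

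The epithelial classes were nearly empty of Aldh1a2. Cluster 12 had 0 and 1 UMIs, cluster 15 had 1 and 0, non-sensory epithelium-like cells 2 and 0, and hair cell-like cells 1 and 0. Clusters 12 and 15 were called lower (adjusted p = 0.0117 and 0.0394), and both calls were lost in the fit of 13 classes (adjusted p = 0.0969 and 0.206), where hair cell-like cells were lower (adjusted p = 0.0124). In cluster 0, 73.8% and 68.1% of cells carried an Aldh1a2 UMI (32.9% and 34.3% after thinning to 2000 UMIs), against 2.20% and 0% of erythroid cell-like cells (0.488% and 0%).

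Aldh1a1, the enzyme for the same step, had another distribution. It lies at chr19:20492715-20643465 (plus strand). Cluster 12 had 389.8 and 129 CPM (167 and 23 UMIs), non-sensory epithelium-like cells 232 and 167 CPM, and cluster 15 had 19.1 and 203 CPM. Mesenchyme carried it too, with 102 and 113 CPM in cluster 0, 65.3 and 121 CPM in cluster 3, 87.4 and 42.9 CPM in cluster 4 and 47.4 and 40.6 CPM in cluster 2. Clusters 0, 2, 3, 4, 6 and 7 together held 43.6% and 76.9% of the Aldh1a1 UMIs. Cluster 12 and non-sensory epithelium-like cells together held 33.2% and 9.52%. Cluster 12 lay above cluster 0 in both libraries, but the libraries of cluster 15 stood far apart, and the classes after cluster 12 overlapped their neighbours down to cluster 2.

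Cluster 12 was higher in Aldh1a1 by 2.76 ± 0.52 (log2, adjusted p = 0.00310). In the fit of 13 classes non-sensory epithelium-like cells were higher by 2.17 ± 0.53 (adjusted p = 0.00922). Cluster 0, the class with most Aldh1a2, was not called for Aldh1a1 (1.24 ± 0.53, adjusted p = 0.168). In counts, cluster 0 had 0.448 and 0.455 Aldh1a1 UMIs per Aldh1a2 UMI in the libraries, cluster 3 had 1.28 and 2.15, and cluster 12 had 167 Aldh1a1 against 0 Aldh1a2 UMIs in library 1 and 23 against 1 in library 2.

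Within cluster 0, after thinning, Aldh1a1 was seen in 22.4% and 19.3% of cells with an Aldh1a2 UMI and in 18.0% and 20.2% of cells without one. Both enzymes were seen in 11 cells of each library. Cells of cluster 0 with one enzyme were thus not clearly richer or poorer in the other at this depth, and no test was made over cells.

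Erythroid cell-like cells, of the red blood cell lineage, were also called higher in Aldh1a1 (2.17 ± 0.58, adjusted p = 0.0120). Their levels were 37.7 and 36.0 CPM, from 181 and 18 UMIs, below the mean CPM of the other classes, and the direction comes from TMM scaling of a class filled by haemoglobin. Without scaling factors the difference was -0.23 (adjusted p = 0.882). Library 1 had 28.8, 49.5, 42.0 and 37.9 CPM in the 4 erythroid clusters.

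Rarres2 UMIs per Rarres1 UMI were 0.290 in erythroid cell-like cells and 0.266 in all other cells of library 1, whereas Aldh1a1 UMIs per Rarres1 UMI were 1.46 and 0.117. Library 2 had 18 Aldh1a1, 4 Rarres2 and 1 Rarres1 UMIs in erythroid cell-like cells, too few Rarres1 UMIs for either ratio, and 0.112 Aldh1a1 and 0.440 Rarres2 UMIs per Rarres1 UMI elsewhere. The part of free RNA in these values was not tested.

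**Figure D2:**
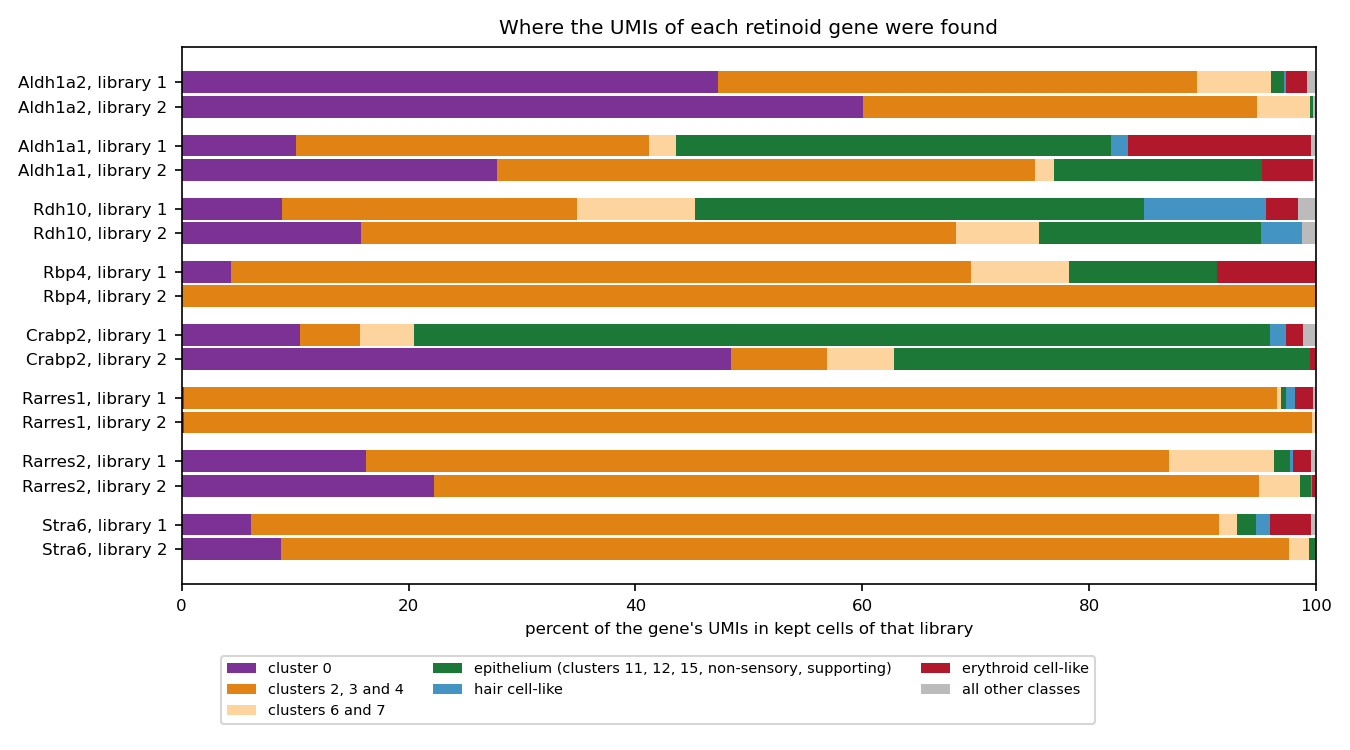
Percent of each gene's UMIs in kept cells (horizontal axis) found in 7 groups of classes, with 1 bar for each gene and library. The bars depend on how many cells of each class a library held. Clusters 2, 3 and 4 held 96.3% and 99.4% of Rarres1, and cluster 0 held 47.3% and 60.1% of Aldh1a2.

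Rbp4, the blood carrier of retinol, lies at chr19:38116629-38125281 (minus strand) and had 23 and 37 UMIs in all. Cluster 2 held 12 of the 23 UMIs of library 1 and all 37 of library 2, from 6 cells of 68 and 6 cells of 141, with up to 16 UMIs in a cell. When the cells were clustered at a resolution of 2.0, cluster 2 fell apart into a Coch-richer and a Coch-poorer cluster, and Rbp4 was at 13 and 73 CPM in the first and 1.95 and 0.939 CPM in the second. It was too scarce to be tested.

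Stra6, the membrane receptor through which cells take up retinol from RBP4, lies at chr9:58063788-58153996 (plus strand). Cluster 2 had 50.2 and 41.8 CPM (90 and 110 UMIs), cluster 3 had 32.2 and 41.6 CPM (118 and 20 UMIs), and cluster 4 had 3.24 and 39.3 CPM (1 and 22 UMIs). Clusters 2 and 3 were close, cluster 4 was high in library 2 alone, and cluster 0 had 13.5 and 15.3 CPM. Cluster 15, cluster 11 and macrophage-like cells had 0 UMIs in both libraries.

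Stra6 was higher in cluster 2 (adjusted p = 7.58e-08), cluster 3 (adjusted p = 5.34e-06) and cluster 4 (adjusted p = 0.0118). The cluster 4 call rested on library 2: in library 1 alone the difference was -0.57 (log2), and DESeq2 gave an adjusted p of 0.193. Folds are not given, since classes at 0 enter the mean of the others. Clusters 2, 3 and 4 held 85.3% and 88.9% of the Stra6 UMIs. In cluster 2, 54.4% and 36.2% of cells had a UMI (7.35% and 7.09% after thinning), against 2.20% and 0% of erythroid cell-like cells (0.244% and 0%).

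Of the cellular retinoic acid binding proteins, Crabp1 (chr9:54764748-54773110, plus strand) was nearly undetected, with 1 UMI in cluster 7 and 1 in an erythroid cell-like cell, both in library 1. Crabp2 (chr3:87948666-87953376, plus strand), which delivers retinoic acid to its receptor, was at 491 and 389 CPM in non-sensory epithelium-like cells, from 437 and 35 UMIs, and was seen in all 43 and all 6 of these cells. Cluster 12 had 310.5 and 185 CPM and cluster 0 had 79.4 and 93.0 CPM. Cluster 11 had 92.2 CPM in library 1 and 0 UMIs in its 7 cells of library 2. The order from non-sensory epithelium-like cells to cluster 12 to cluster 0 held in both libraries without overlap.

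Crabp2 was higher by 4.18 ± 0.25 in cluster 12 (log2, adjusted p = 8.37e-21) and by 2.52 ± 0.25 in cluster 0 (adjusted p = 4.07e-12). In the fit of 13 classes it was higher by 4.45 ± 0.21 in non-sensory epithelium-like cells (adjusted p = 8.46e-43) and by 1.44 ± 0.33 in cluster 11 (adjusted p = 2.63e-04), with no UMI in library 2. After thinning, Crabp2 was seen in 2 of the 54 cluster 11 cells of library 1, so its 64 UMIs there need not stand for the class. It was lower in cluster 2 (9.48 and 2.28 CPM, log2 fold change -1.88 ± 0.39, adjusted p = 1.28e-04) and in cluster 3 (6.56 and 10.4 CPM, -1.54 ± 0.39, adjusted p = 0.00233, DESeq2 0.0742). Cluster 12 and non-sensory epithelium-like cells together held 67.5% of the Crabp2 UMIs of library 1 and 36.2% of those of library 2, where cluster 0 held 48.4%.

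The classes rich in Crabp2 thus included cluster 0, the class with most Aldh1a2, and cluster 12 and non-sensory epithelium-like cells, the classes with the highest mean CPM of Aldh1a1, though in library 2 cluster 15 lay above both. Within cluster 0, after thinning, Crabp2 was seen in 12.2% and 12.3% of cells with an Aldh1a2 UMI and in 16.0% and 17.4% of cells without one. In cluster 12 of library 1 it was seen in 57.9% of cells with an Aldh1a1 UMI and 26.7% of cells without one, and in non-sensory epithelium-like cells of library 1 in 28.6% and 69.0%. These shares rest on 34 and 43 cells and point in opposite ways, so no association within classes is read from them.

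**Figure D3:**
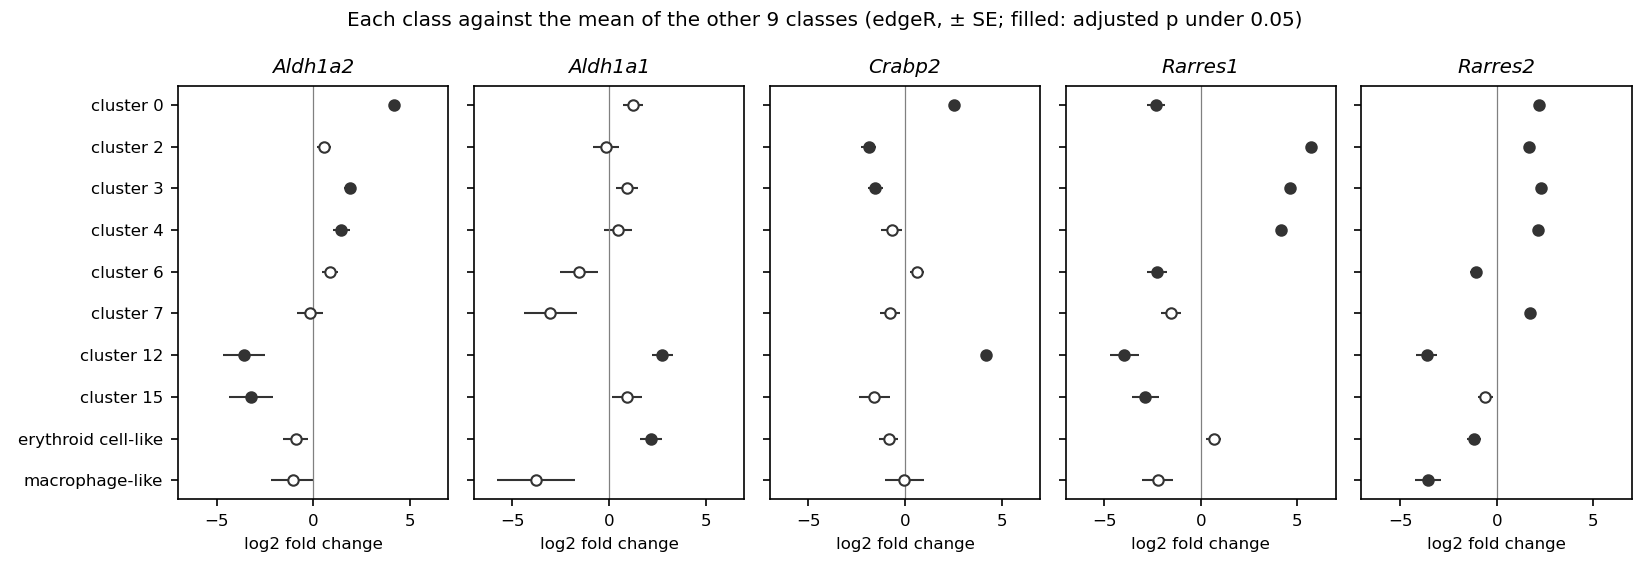
Log2 fold change (horizontal axis, ± SE) of 5 retinoid genes in each of 10 classes against the mean of the other 9, from 2 libraries, with filled points for an adjusted p under 0.05. Crabp2 was higher in cluster 12 (4.18) and cluster 0 (2.52), Rarres1 in clusters 2, 3 and 4 (5.72, 4.62 and 4.16). The higher call of Aldh1a1 in erythroid cell-like cells turned to -0.23 without scaling factors.

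Rarres1, also known as tazarotene-induced gene 1, encodes a membrane protein and lies at chr3:67478972-67515523 (minus strand). It was the most abundant of the 9 genes. Cluster 2 had 2815 and 1053 CPM (5048 and 2772 UMIs), cluster 3 had 681 and 903 CPM, and cluster 4 had 1085 and 334 CPM. All other fitted classes lay at or below 35.8 CPM, so clusters 2, 3 and 4 stood apart in both libraries, with cluster 2 above cluster 3 in each.

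The log2 fold change was 5.72 ± 0.23 in cluster 2 (adjusted p = 2.76e-21), 4.62 ± 0.26 in cluster 3 (adjusted p = 7.19e-17) and 4.16 ± 0.26 in cluster 4 (adjusted p = 3.76e-15). Clusters 2, 3 and 4 held 96.3% and 99.4% of all Rarres1 UMIs. Lower calls fell on cluster 0 (-2.30 ± 0.47), cluster 12 (-3.96 ± 0.74), cluster 6 (-2.26 ± 0.50) and cluster 15 (-2.87 ± 0.71, adjusted p = 0.00255, lost without the library block at 0.0609). Hair cell-like cells had 91.2 CPM in library 1 (68 UMIs, 58.3% of 48 cells, 16.7% after thinning) and 0 UMIs in the 4 cells of library 2. The matching share in erythroid cell-like cells was 24.6% in library 1 (6.83% after thinning).

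Within these clusters the level varied from cell to cell. In cluster 2 all 68 cells of library 1 and 128 of 141 cells of library 2 had a UMI, with medians of 60.5 and 8 UMIs per cell and maxima of 222 and 205. The per-cell median was 3111 and 787 CPM. The summed level of the class in library 1 was 2.67 times that in library 2. Median depth differed in the same direction, at 26118.5 and 10862 UMIs, and its part in the difference was not tested. In cluster 3 the 5 highest cells held 18.9% and 71.0% of the Rarres1 UMIs. Cluster 4 carried a summed level of the 7 erythroid markers of 97058 and 15914 CPM, against 5699 and 1876 CPM in cluster 2, with Slc4a1 at 0 in library 2, and the part of this in the cluster 4 values was not tested.

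Rarres1 did not simply follow Coch. The Coch-richer of the 2 finer clusters of cluster 2 had 4213 and 1739 CPM of Rarres1 with 18428 and 11352 CPM of Coch, and the other had 1766 and 898 CPM with 6990 and 5357 CPM. Cluster 7, however, had 4952 and 10452 CPM of Coch with 23.5 and 35.8 CPM of Rarres1. Cluster 6 had 1950 and 2016 CPM of Coch with 17.3 and 10.8 CPM. Coch itself served as a marker in the clustering, and its levels are given as a description.

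**Figure D4:**
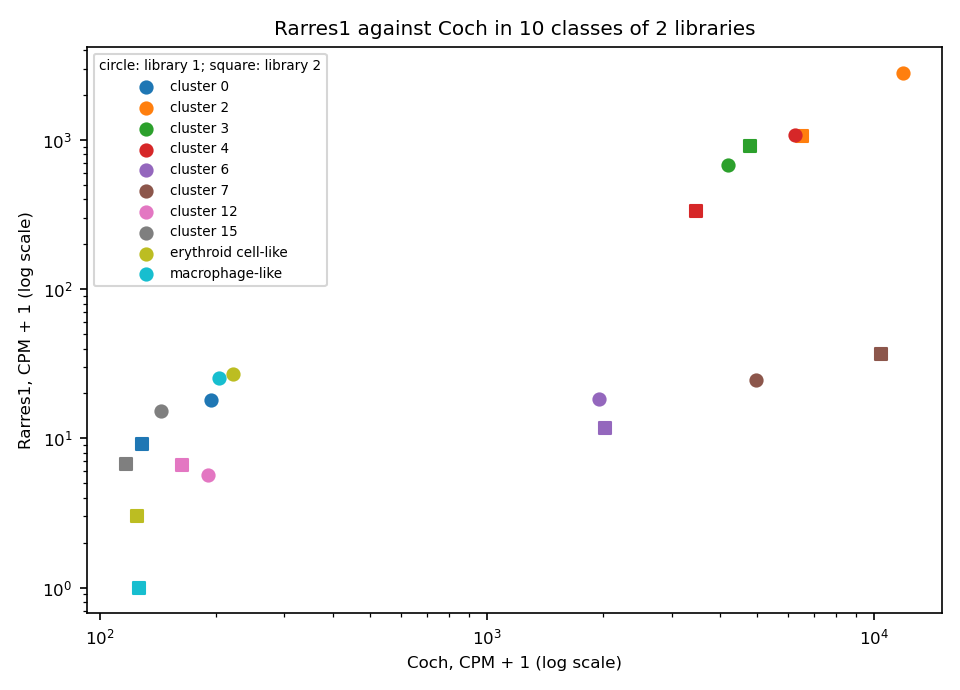
Rarres1 (vertical axis) against Coch (horizontal axis), both as CPM + 1 on log axes, in 10 classes of 2 libraries (circles library 1, squares library 2). Clusters 2, 3 and 4 are high in both genes, while cluster 7 is high in Coch at 4952 and 10452 CPM and low in Rarres1 at 23.5 and 35.8 CPM.

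Rarres2 encodes chemerin, a secreted attractant of immune cells, and lies at chr6:48569696-48572789 (minus strand). It was spread over 5 mesenchymal clusters, at 304 and 370.4 CPM in cluster 3, 319 and 343 CPM in cluster 0, 275 and 323 CPM in cluster 4, 190.2 and 406 CPM in cluster 7 and 192 and 279.9 CPM in cluster 2. These ranges overlapped. The gap came below them, to 76.4 and 57.9 CPM in cluster 15, where all 16 UMIs of library 1 came from 1 cell, and to 48.1 and 43.2 CPM in cluster 6.

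All 5 clusters were called higher for Rarres2, with log2 fold changes from 1.67 ± 0.22 in cluster 2 to 2.28 ± 0.21 in cluster 3. Lower calls fell on cluster 12 (-3.63 ± 0.53, adjusted p = 1.31e-07), macrophage-like cells (-3.56 ± 0.68, adjusted p = 4.07e-05), erythroid cell-like cells (-1.17 ± 0.37, adjusted p = 0.00754) and cluster 6 (-1.06 ± 0.32, adjusted p = 0.00876). The calls in erythroid cell-like cells and cluster 6 were lost in the fit of 13 classes (adjusted p = 0.590 and 0.905). Of the cells of cluster 3, 95.6% and 100% had a Rarres2 UMI (46.5% and 36.0% after thinning), against 8.05% and 5.13% of erythroid cell-like cells (1.46% and 2.56%).

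Cluster 6, with the fibrocyte markers Otos, Car3 and Kcnk2, was compared directly with cluster 0, the class with most fibroblast markers. This pair was chosen after the data were seen. In cluster 6, 5 of the 7 genes were lower and 0 higher, where 13.5% and 12.9% of all genes were called. Aldh1a2 differed by -2.98 ± 0.34 (log2, adjusted p = 4.04e-09), Rarres2 by -2.92 ± 0.33 (adjusted p = 2.61e-10), Crabp2 by -1.70 ± 0.35 (adjusted p = 1.46e-04), Aldh1a1 by -2.51 ± 0.80 (adjusted p = 0.0442) and Stra6, with 2 and 0 UMIs in cluster 6, reached an adjusted p of 0.0142. The Aldh1a1 call was lost with DESeq2 size factors in the fit (adjusted p = 0.0538), and the Stra6 call under DESeq2 (0.0672). The 7 leptomeningeal markers summed to 8690 and 23278 CPM in cluster 6 and to 364 and 558 CPM in cluster 0, with Slc22a6 at 0 in both clusters. The median share of mitochondrial UMIs was 8.85% and 10.2% in cluster 6 and 3.04% and 3.22% in cluster 0, and median depths were 13217.5 and 11143.5 against 5532 and 5542 UMIs. The part of the markers, the mitochondrial share and depth in the difference was not tested.

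The genes most alike each member were found over the 20 sums of class and library (Pearson's r of log2 of CPM plus 10 over 9402 genes). The sums share libraries and depths, and some genes named below were among those the clustering could use to form the classes, so r is a description. These were Tacr1, Otor, Cdkn1c, Wdr86, Islr, Pcdh9, Lrp4, Gm27151, 2700046A07Rik and Ttc8. Rarres1 was most like Tacr1 (0.960), the potassium channel gene Kcnk3 (0.953) and the otoraplin gene Otor (0.951), and Rarres2 most like Cdkn1c (0.973), Wdr86 (0.962) and Islr (0.959). Aldh1a2 was most like Pcdh9 (0.918), Fgfr4 (0.901) and Lrp4 (0.895), and Crabp2 most like Col18a1 (0.916), Tubb2b (0.869) and Gm27151 (0.845). Stra6 was most like 2700046A07Rik (0.928), Olfm1 (0.897) and Hs3st3b1 (0.869). Rdh10 was most like Ttc8 (0.911) and Snx33 (0.905), and Aldh1a1 most like Pgam5 (0.777), 4932422M17Rik (0.771) and Ddit4l (0.764). Among the members, Aldh1a2 and Aldh1a1 had an r of 0.11, Rarres1 and Stra6 0.74, and Aldh1a2 and Rarres2 0.74.

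Beyond the 9 genes, 25 of 55 other retinoid genes passed the filter, and 250 comparisons gave 54 higher and 16 lower calls, beside 14.9% and 6.23% of all comparisons, so the lower calls were near the background. The nuclear receptors were all tested. In cluster 2 and in cluster 3, 5 of 6 were higher (Rara, Rarb, Rarg, Rxra and Rxrg) and 0 lower, beside 18.7% and 17.5% of all genes called higher, with a median log2 fold change of 1.04 and 0.94, where all tested genes had 0.09 and 0.10. With sums under 3 UMIs raised to 3, the medians were 0.58 and 0.69 (all tested genes -0.14 and -0.15). In the fit of 13 classes Rxrg was no longer called in cluster 3 (adjusted p = 0.115). Rarb, itself a known target of retinoic acid, was at 85.7 and 94.1 CPM in cluster 0, 91.3 and 119 CPM in cluster 6 and 81.0 and 131 CPM in cluster 7, was called higher in all 6 mesenchymal clusters, and had 0 UMIs in macrophage-like cells of both libraries. Rxrg was at 38.2 and 55.6 CPM in non-sensory epithelium-like cells, 23.3 and 16.8 CPM in cluster 12 and 24.0 and 11.8 CPM in cluster 2, with 0 UMIs in cluster 0. Rxrb was called in no class.

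The breakdown enzymes were scarce. Cyp26b1 had 83 UMIs in all, with 6.13 and 10.6 CPM in cluster 2 and 6.48 and 12.5 CPM in cluster 4, Cyp26a1 had 2 and Cyp26c1 had 0. None passed the filter. Dhrs3, which returns retinal to retinol, was higher in cluster 15 (449 and 307 CPM, 1.60 ± 0.23), cluster 7 (255 and 453 CPM, 1.45 ± 0.23) and macrophage-like cells (267 and 192 CPM, 1.09 ± 0.29). It was lower in erythroid cell-like cells (-2.11 ± 0.36) and in cluster 12 (58.4 and 33.6 CPM, -1.45 ± 0.33), the latter a call lost in the fit of 13 classes (adjusted p = 0.392).

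Of 7 tested genes known to respond to retinoic acid, cluster 2 had 5 higher, clusters 3 and 7 had 4 and clusters 0 and 6 had 3, with 0 lower in these clusters, beside 18.7%, 17.5%, 9.05%, 14.2% and 17.2% of all genes called higher. Their median log2 fold changes were 0.88, 0.78, 1.29, 1.18 and 0.71 in the same order, and 0.70, 0.82, 1.15, 0.05 and 0.43 with sums under 3 UMIs raised to 3. Over all classes this list had 24 higher and 8 lower calls in 70 comparisons, beside 14.9% and 6.23% of all comparisons. The list of retinol and retinal metabolism had 14 higher and 7 lower calls in 90 comparisons, near those shares. In cluster 6, where 17.2% of all genes were called higher, 5 of its 9 tested genes were higher, among them the saturase gene Retsat (39.5 and 75.5 CPM, 2.87 ± 0.37) and the dehydrogenase gene Rdh5 (43.2 and 32.4 CPM, 2.25 ± 0.39). Rai14 was higher in cluster 15 (42.9 and 17.4 CPM, from 9 and 3 UMIs, adjusted p = 0.00448). Fabp5 was higher in cluster 3 (71.3 and 164 CPM, 2.15 ± 0.50).

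No chemerin receptor was called higher in the 5 clusters called higher for Rarres2 (0, 2, 3, 4 and 7). In cluster 0 the 2 tested receptors had a median log2 fold change of 0.07, and of -1.57 with sums under 3 UMIs raised to 3. Cmklr1 was called higher in macrophage-like cells (32.4 and 67.3 CPM, from 4 and 7 UMIs, adjusted p = 1.49e-07), cluster 12 (4.67 and 16.8 CPM, from 2 and 3 UMIs) and cluster 6 (1.23 and 10.8 CPM, from 1 and 5 UMIs), and had 0 UMIs in clusters 2, 3, 4 and 7. Non-sensory epithelium-like cells had 16.9 and 22.2 CPM. The call in cluster 6 rested on library 2, since in library 1 alone the log2 difference was -0.16. Ccrl2 was higher in macrophage-like cells (24.3 and 250.1 CPM, from 3 and 26 UMIs, adjusted p = 1.66e-12) and erythroid cell-like cells, and Gpr1 had 1 UMI.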

How the data were processed

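Droplet single-cell RNA sequencing gave 2 libraries of mouse cochlea. The authors deposited UMI counts for each gene in each barcode, from Cell Ranger 2.1.0 and mm10 per the submitters' processing notes, and the way barcodes were selected was not given in the sources used here. Depth per library ran from 7094752 to 20212520 UMIs before filtering. Cells were filtered as the text states, Scrublet (scanpy 1.11.5) took out doublets, and 2000 variable genes, 30 components, 15 neighbours and Leiden resolution 1.0 gave the clusters. Clustering used marker genes and those of odd identifier checksum. A cluster was named where it had 3 or more markers of a list, 40% of that list and a margin of 20 points over the next list. A raised marker also had to be seen in 25% of its cells, and no other list could have more markers among its leading genes. Because Scrublet called 0.150% and 0.621% of barcodes, some doublets may have stayed, and free RNA was not removed.

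Counts were summed per library and class and fitted with edgeR 4.0.16 (quasi-likelihood, library block, TMM factors, filterByExpr at a minimum of 10 counts), and all adjusted p-values in the text are from edgeR or, where named, DESeq2 1.42.0, after Benjamini-Hochberg adjustment over all tested genes kept out of the clustering. In a test on simulated data with 200 changed genes among 7495, 37.5% of 2-fold and 92.7% of 4-fold changes were recovered, and 0.0684% of unchanged genes were called. Apart from the changed genes, the simulated classes shared the same mean profile and had no library effect. The changed genes were drawn from the more abundant ones, so these rates need not hold for the real classes or scarce genes. Exact Poisson intervals (95%) cover counting error only. The 9 genes and the other lists were chosen with earlier results of these data known. Beyond the 9, the text names the receptors, breakdown enzymes, chemerin receptors, Dhrs3, Aldh1a3 and Fabp5, the 5 others with the highest fold change among those called, and up to 3 genes most alike each tested member. Some items are not reported here. Gene positions are from GENCODE M21 (GRCm38). A planned comparison of fibrocyte-like with fibroblast-like cells could not be made, since no cluster met either name, and clusters 6 and 0 took its place. Alternatives covered the block, tool, scaling, filters, clustering resolution, erythroid cells, class size and each library left out.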

Additional observations from a re-analysis of the deposited data

Results flagged for a closer look

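UMIs of the 9 genes were also present in barcodes that the comparisons leave out, above the limit that a count of 0 allows. The 335 barcodes with fewer than 300 detected genes held 2147548 UMIs, among them 42 UMIs of Aldh1a1 in 37 barcodes, 23 of Rarres1, 11 of Rarres2 and 4 of Aldh1a2. The 6 barcodes called doublets held 67334 UMIs, with 12 UMIs of Rarres1, 10 of Crabp2, 7 of Rarres2 and 5 of Aldh1a2. The source of these UMIs was not tested.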

How the results depend on the processing

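Over the 7 tested genes, higher calls ran from 16 to 27 (18 in the fit described) and lower calls from 10 to 15 (12), 27 and 15 being from the added fit of 13 classes. Without the library as a block there were 18 higher and 10 lower calls, and Rarres1 and Aldh1a2 in cluster 15 were lost (adjusted p = 0.0609 and 0.0505). The libraries were paired because the classes of a library come from 1 suspension. Of the other retinoid genes, 45 to 76 comparisons were higher (54) and 15 to 27 lower (16), with 27 lower in the fit of 13 classes, which has more classes. Genes lower in cluster 6 than in cluster 0 numbered 4 or 5. With either library alone, 17 to 18 of the 18 higher and all 12 lower calls kept their direction, as did 53 to 54 of 54 and 15 to 16 of 16 for the other retinoid genes, with no test. Sizes were less stable: the value of 1 library lay more than 1 SE from the fitted value for 18 of 35 calls without library 1, and for 14 without library 2, with 1 more reversed. Stra6 in cluster 4 was 2.31 without library 1 and turned to -0.57 without library 2, and Aldh1a1 in erythroid cell-like cells to -0.23 without scaling factors. The calls lost under DESeq2 numbered 4 of 35 and under a filter of 500 genes and 10% mitochondrial UMIs 3 of 35. Without scaling factors the median of all genes moved by -2.31 in erythroid cell-like cells and by 0.11 to 0.49 in other classes, and the higher share of calls fell from 58.2% to 4.31% in the former and rose from 66.4% to 89.3% in cluster 15, 70.0% to 88.9% in cluster 6, 63.7% to 76.6% in cluster 12, 78.4% to 91.1% in cluster 2, 78.4% to 91.4% in cluster 3 and 61.0% to 74.0% in macrophage-like cells. With DESeq2 size factors in the edgeR fit that share was 43.5% in erythroid cell-like cells, and in DESeq2 it was 39.8% there and 77.2% in macrophage-like cells. Depth limits the scarcest genes: at 1000 UMIs per cell Stra6 was seen in 0.629% of cluster 3 cells of library 1. The planned pair of named classes was not run.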

Other observations

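Other retinoid genes marked epithelial and neural classes. These genes and classes, apart from Aldh1a3, Ttr and Rlbp1, were singled out after their values were seen. Aldh1a3, the third retinaldehyde dehydrogenase, stood at 548 CPM in 6 spiral ganglion neuron-like cells of library 1 (95% Poisson interval 455 to 654, 123 UMIs, present in 6 of 6 cells) and at 44.5 CPM (26.8 to 69.5) in organ of Corti supporting cell-like cells, which library 2 lacked. Rbp7, a cellular retinol binding protein, reached 1791 CPM (1666 to 1922) in those supporting cell-like cells, with UMIs in 27 of 28 cells. In cluster 11 it was at 117 and 21.9 CPM and was higher by 4.59 ± 0.42 (log2, edgeR adjusted p = 9.53e-20 in the fit of 13 classes). Rdh12, a retinal reductase, was at 118 and 250.1 CPM in hair cell-like cells, from 88 and 9 UMIs, and was higher there (adjusted p = 4.15e-31).

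Cluster 15 carried Ttr, the transthyretin gene whose product binds RBP4 in blood, at 616 and 208 CPM (log2 fold change 7.16 ± 0.29, adjusted p = 3.69e-29) and Rlbp1, the retinaldehyde binding protein gene, at 205 and 122 CPM (adjusted p = 1.12e-12). The 7 leptomeningeal markers summed to 6099 and 3067 CPM in cluster 15 and the 7 erythroid markers to 36297 and 2297 CPM, and their part in these values was not tested. Rlbp1 was also at 284 and 131 CPM in cluster 11. Stria intermediate cell-like cells had Dhrs3 at 918 and 775 CPM, from 2 and 19 cells, with no test.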
